A study of Homo sapiens with 6 samples.

Results

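The genes described here form the antioxidant programme controlled by the transcription factor NRF2, together with the enzymes and metal-binding proteins it draws on. They were chosen by name as a list of 42 genes, and a gene was measured where a probe set, the group of oligonucleotides that reads 1 transcript on the array, was annotated to that gene symbol alone. Of the 42 genes, 40 were measured among 12381 genes in all, and each was read from the probe set with the highest mean over the arrays. FTH1 and AKR1B1 were not analysed here. The cells were U251, a long-established line from a human glioma, and RNA was read after 24 h on 60 mm dishes coated with electrospun nanofibers of poly-caprolactone, a polyester, in medium with 10% serum. In 3 cultures the fibers were highly aligned, and in 3 cultures they were randomly oriented, with 1 Affymetrix HG-U133 Plus 2 array per culture. The cultures are described as independent. All 6 come from 1 cell line on fibers of the same polymer, so the comparison is between fiber layouts and not between fibers and another surface.

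NRF2, encoded by NFE2L2, is held in the cytoplasm and marked for degradation by KEAP1, whose reactive cysteines sense oxidants and electrophiles. When KEAP1 is modified, NRF2 accumulates, pairs with a small MAF protein and binds antioxidant response elements, while BACH1 competes for the same elements as a repressor. Its targets make and recycle glutathione and thioredoxin, supply NADPH, detoxify quinones and break down heme, and in glioma the programme is known for its part in resistance to chemotherapy and radiation.

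Values are log2 RMA expression values, so a difference of 1 is a doubling, and differences are aligned minus random with their standard error (SE) from limma, a linear model with moderated variances fitted across all genes. No member passed the Benjamini-Hochberg adjusted threshold of 0.05 over the 12381 genes, where 0 genes (0%) passed in limma and 1303 had an unadjusted p under 0.05. At the unadjusted threshold, 4 members were higher on aligned fibers, against 4.72% of all genes tested, and 2 were lower, against 5.81%. Together these were 6 of 40 members or 15%, against 10.5% of all genes. The 4 were TXNRD1, SRXN1, TXNRD2 and HMOX1, and the 2 were PRDX2 and CAT. The count of 6 became 10 when aligned 1 was left out (20.1% of all genes), 3 without aligned 2 (8.38%) and 2 without aligned 3 (6.58%). Omitting random 1 gave 4 (9.67%), omitting random 2 gave 3 (5.97%) and omitting random 3 gave 4 (5.04%). With weights estimated per array it was 16, against 34.9% of all genes. The median difference over the 40 members was 0.04 log2 units against 0.01 over all genes, and it was -0.03 without aligned 3. In bulk RNA, a change in the number of expressing cells and a change in RNA per cell cannot be told apart.

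**Figure D1:**
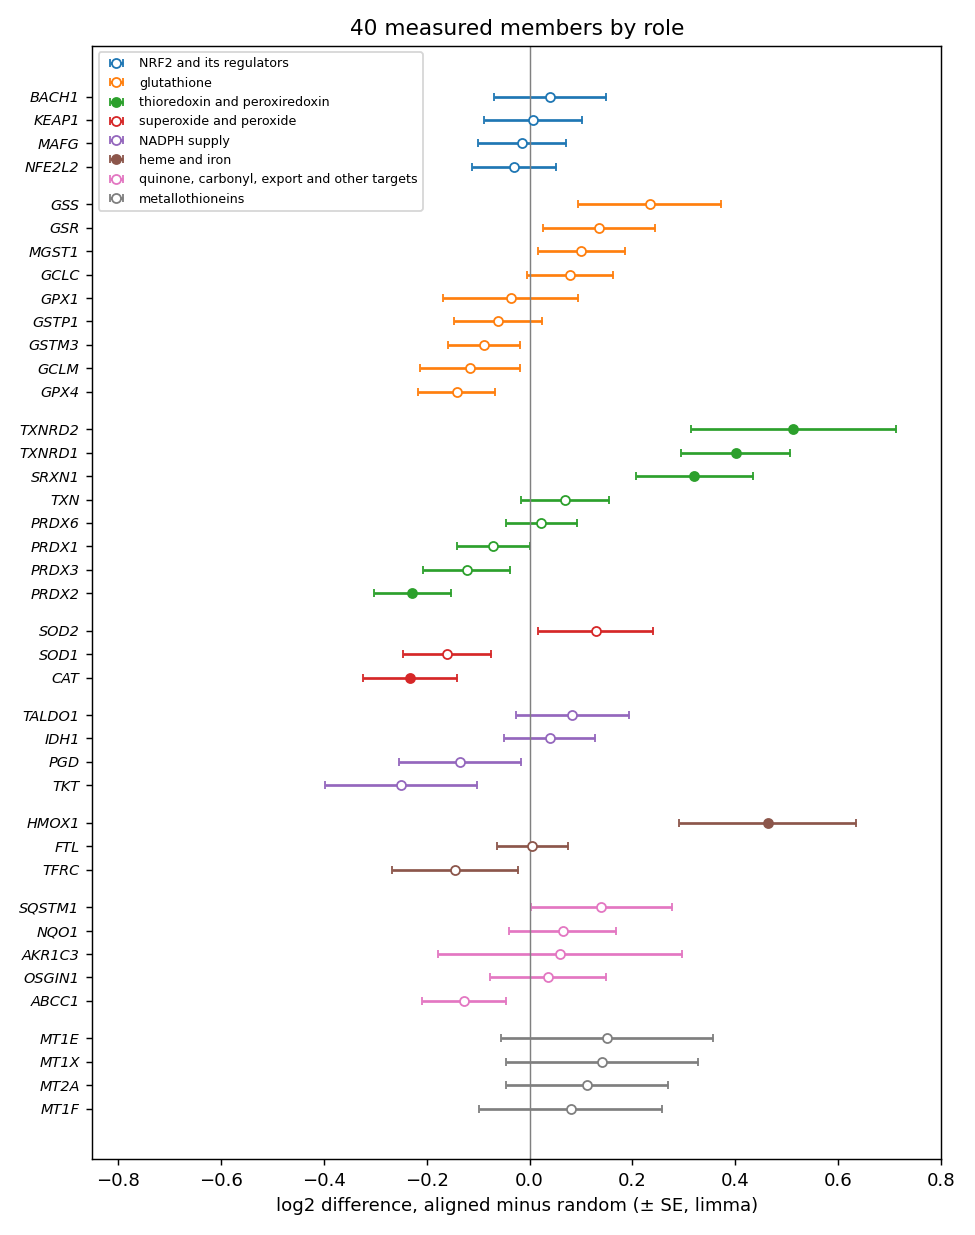
Log2 difference, aligned minus random, for the 40 measured members grouped by role, with bars for the SE from limma (n = 3 arrays per group). Filled points mark the 6 members with an unadjusted p under 0.05, and differences span -0.25 to 0.51.

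The array aligned 3 stood apart from the other 5. Set against the average random array, its root mean square distance was 0.38 log2 units over all genes and 0.34 over the members, while aligned 1 had 0.17 and 0.14 and aligned 2 had 0.19 and 0.19. Of the glioma and astroglial markers, VIM, NES, CD44 and FABP7 had means of 11.26 or more on both layouts, whereas GFAP read 5.22 on aligned and 6.03 on random fibers, and S100B was below the filter on dim probe sets. Of the markers of other cell types, that filter kept 1 of 4 for microglia and macrophages (AIF1), 2 of 4 for endothelium (PECAM1 and VWF), 3 of 4 for neurons (RBFOX3, SYT1 and SNAP25), 1 of 3 for oligodendrocytes (MBP) and 1 of 2 for erythroid cells (HBB). Among these kept markers SYT1 was the brightest, with means of 7.82 on aligned and 7.27 on random fibers, and the part of these markers in the results was not tested.

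The antioxidant response element can be looked for directly in the start regions of these genes. RefSeq promoter windows (GRCh38.p14, 250 bases before to 50 bases after the transcription start) matched 32 of the 42 members with 51 windows. Windows for HMOX1, GSR, GSS, PRDX1, PRDX6, SOD1, FTH1, ABCC1, MT1E and MT1F were not used here. The element's core, TGACNNNGC on either strand, was found in 10 of the 51 member windows (19.6%), against 13.3% of 35116 windows of all genes. Its form TGACTCAGC, which contains the AP-1 motif TGACTCA, was in 2 of the 51 (3.92%), those of GSTP1 and MT2A, against 0.561% of all windows. The 4 windows printed next are those of TXNRD1, which has 2 annotated starts and had the lowest p among the members, and of GCLM and GSTP1, members that hold the core and did not reach the unadjusted threshold. Capitals mark the core on either strand.
TXNRD1, first start, chr12:104215529-104215828, plus strand: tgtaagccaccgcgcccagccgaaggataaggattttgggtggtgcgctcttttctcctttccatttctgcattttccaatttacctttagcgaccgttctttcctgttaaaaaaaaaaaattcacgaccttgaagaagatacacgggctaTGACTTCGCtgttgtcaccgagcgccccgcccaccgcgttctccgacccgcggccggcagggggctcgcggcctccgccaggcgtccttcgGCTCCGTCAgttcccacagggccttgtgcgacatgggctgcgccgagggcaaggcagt
TXNRD1, second start, chr12:104286782-104287081, plus strand: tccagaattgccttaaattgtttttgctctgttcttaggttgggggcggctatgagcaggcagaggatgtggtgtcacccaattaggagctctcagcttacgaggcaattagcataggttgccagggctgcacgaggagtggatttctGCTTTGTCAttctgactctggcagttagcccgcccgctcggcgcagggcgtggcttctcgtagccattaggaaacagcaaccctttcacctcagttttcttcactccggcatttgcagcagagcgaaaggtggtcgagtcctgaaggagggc
GCLM, chr1:93909381-93909680, minus strand: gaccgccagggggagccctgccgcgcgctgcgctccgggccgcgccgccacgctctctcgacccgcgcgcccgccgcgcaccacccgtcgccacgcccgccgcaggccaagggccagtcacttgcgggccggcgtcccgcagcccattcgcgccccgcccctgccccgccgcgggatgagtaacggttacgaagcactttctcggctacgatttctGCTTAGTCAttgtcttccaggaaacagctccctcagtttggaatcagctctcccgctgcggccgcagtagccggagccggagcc
GSTP1, chr11:67583562-67583861, plus strand: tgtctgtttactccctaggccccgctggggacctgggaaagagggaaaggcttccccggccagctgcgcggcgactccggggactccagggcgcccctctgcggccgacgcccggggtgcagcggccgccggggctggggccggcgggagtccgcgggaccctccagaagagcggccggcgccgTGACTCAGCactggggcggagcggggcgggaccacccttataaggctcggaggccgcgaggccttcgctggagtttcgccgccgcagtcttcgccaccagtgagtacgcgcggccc
In TXNRD1 the core lies at bases -99 to -91 and -8 to 1 of the first window and at -102 to -94 of the second, counted from the start. In GCLM it lies at -34 to -26 and in GSTP1 at -66 to -58. Of the other members at the unadjusted threshold, SRXN1, TXNRD2, PRDX2 and CAT had windows without the core, and no window of HMOX1 was used. Sequence outside the windows was not searched, so a window without the core does not mean a gene without the element. A match is a run of letters and not a shown binding site, and genes with and without the core were found on both sides of 0.

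For the control genes of the pathway no difference between layouts was detectable. NFE2L2 read 10.11, 9.95 and 10.08 on aligned 1, 2 and 3, against 10.07, 10.00 and 10.17 on random 1, 2 and 3, a difference of -0.03 ± 0.08 (95% confidence interval -0.22 to 0.16). Its inhibitor KEAP1 read 8.85, 8.89 and 9.07 on aligned fibers, against 8.86, 8.86 and 9.07 on random fibers, a difference of 0.01 ± 0.10 (interval -0.22 to 0.23). For both genes the groups overlapped, and the sign turned when single arrays were left out. MAFG, a small MAF partner of NRF2, differed by -0.01 ± 0.09, and the repressor BACH1 by 0.04 ± 0.11. A message level says nothing of the NRF2 protein, which is controlled mainly by its degradation.

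Of the 8 members of the thioredoxin system, 4 were at the unadjusted threshold, 3 higher and 1 lower on aligned fibers, against 10.5% of all genes. The list was chosen with earlier results of these data known, so this share is a description and was not tested. Without aligned 3 only TXNRD1 and PRDX2 stayed at that threshold, against 6.58% of all genes. Thioredoxin reductase uses NADPH to keep thioredoxin reduced, thioredoxin in turn reduces most peroxiredoxins, and sulfiredoxin rescues peroxiredoxins that have been overoxidised. TXNRD1, the cytosolic reductase and a well-known NRF2 target, read 12.24, 12.07 and 12.22 on aligned 1, 2 and 3, against 11.96, 11.61 and 11.75 on random 1, 2 and 3. Every aligned array lay above every random array, with a difference of 0.40 ± 0.11, or 1.32-fold (limma adjusted p = 0.463). Within the numbers 1, 2 and 3 the aligned array was higher by 0.28, 0.46 and 0.47, the value without aligned 3 was 0.38, and the unadjusted p was under 0.05 in all 15 alternative settings.

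SRXN1, which encodes sulfiredoxin, read 10.86, 10.83 and 11.13 on aligned fibers, against 10.71, 10.45 and 10.69 on random fibers. The groups did not overlap, and the difference was 0.32 ± 0.11, or 1.25-fold (limma adjusted p = 0.463). It was 0.22 without aligned 3 and 0.24 without random 2, and in both its unadjusted p was above 0.05. TXNRD2, the mitochondrial reductase, read 8.07, 8.55 and 8.93 on aligned fibers, against 7.92, 8.13 and 7.96 on random fibers. Aligned 1 lay within the random range and aligned 3 was the highest array, and the difference was 0.51 ± 0.20 (limma adjusted p = 0.472). Without aligned 3 it was 0.31, and its unadjusted p was above 0.05 without aligned 2, aligned 3, random 1 or random 3. Its probe set shares sequence with other transcripts by its suffix, and no kept probe set of TXNRD2 is free of this.

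Of the 4 peroxiredoxins, which are peroxidases, 1 reached the unadjusted threshold. It was the cytosolic PRDX2, which read 11.40, 11.43 and 11.29 on aligned 1, 2 and 3, against 11.55, 11.62 and 11.63 on random 1, 2 and 3. All aligned arrays were below all random arrays, and the difference was -0.23 ± 0.07, which is 1.17-fold higher on random fibers (limma adjusted p = 0.463). Its 4 kept probe sets had differences of -0.23 to -0.01, and p was under 0.05 in 13 of 15 settings, the exceptions being the mean of its probe sets and the omission of random 2. The mitochondrial PRDX3 differed by -0.12 ± 0.08, PRDX1 by -0.07 ± 0.07 and PRDX6 by 0.02 ± 0.07, while thioredoxin itself, TXN, differed by 0.07 ± 0.09. None of these 4 passed the unadjusted threshold.

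**Figure D2:**
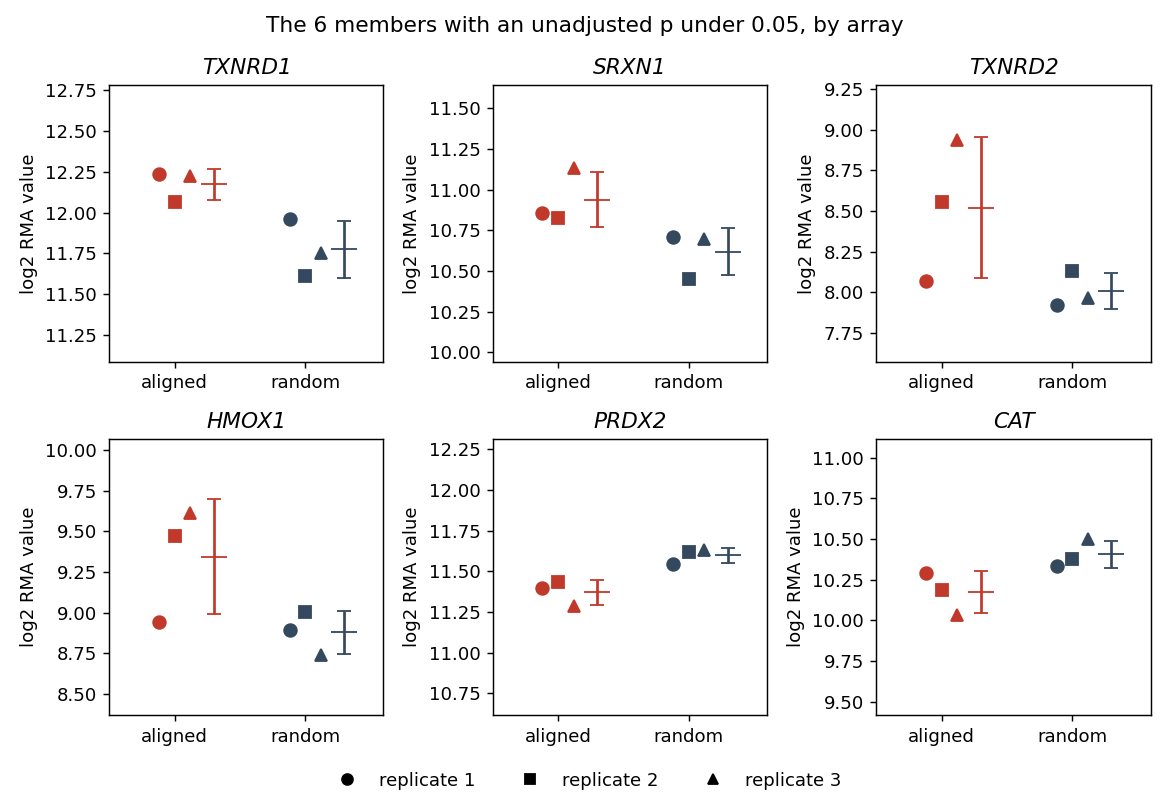
Log2 RMA values of the 6 members with an unadjusted p under 0.05, with aligned arrays in red at the left and random arrays in dark blue at the right. Symbols show the replicate number, bars the mean and SD (n = 3), and all panels span the same range; TXNRD1, SRXN1, PRDX2 and CAT have no overlap between the groups.

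Heme oxygenase 1, HMOX1, cleaves heme into biliverdin, carbon monoxide and iron and is a standard reporter of the NRF2 and BACH1 switch. It read 8.94, 9.47 and 9.61 on aligned 1, 2 and 3, against 8.89, 9.005 and 8.74 on random 1, 2 and 3. Aligned 2 and aligned 3 were above all random arrays and aligned 1 was not, with a difference of 0.46 ± 0.17, or 1.38-fold (limma adjusted p = 0.463). Between arrays of the same number it differed by 0.05, 0.47 and 0.87, and without aligned 3 the difference was 0.33. Its unadjusted p was above 0.05 without aligned 2, aligned 3, random 1 or random 3. Of the iron genes, the transferrin receptor TFRC differed by -0.15 ± 0.12, and by -0.038 without aligned 3. The 4 kept probe sets of TFRC lay between -0.31 and 0.05. The ferritin light chain FTL, whose subunit helps store the iron that HMOX1 frees, differed by 0.01 ± 0.07, and it turned to -0.01 when quantile normalization was repeated.

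Catalase, CAT, which splits hydrogen peroxide, read 10.29, 10.19 and 10.04 on aligned 1, 2 and 3, against 10.34, 10.38 and 10.50 on random 1, 2 and 3. The groups did not overlap, although aligned 1 and random 1 lay close together, and the difference was -0.23 ± 0.09 (limma adjusted p = 0.472). In the fit with the replicate block its unadjusted p was 0.0652, and it was also above 0.05 with the mean of its probe sets and without aligned 2, aligned 3, random 2 or random 3. SOD1, the cytosolic superoxide dismutase, read 12.44, 12.36 and 12.20 on aligned fibers, against 12.52, 12.42 and 12.54 on random fibers, a difference of -0.16 ± 0.09 with overlap at aligned 1, and of -0.095 without aligned 3. The mitochondrial SOD2 differed by 0.13 ± 0.11 on its 1 usable probe set, and 4 others, annotated also to SOD2-OT1, were set aside.

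**Figure D3:**
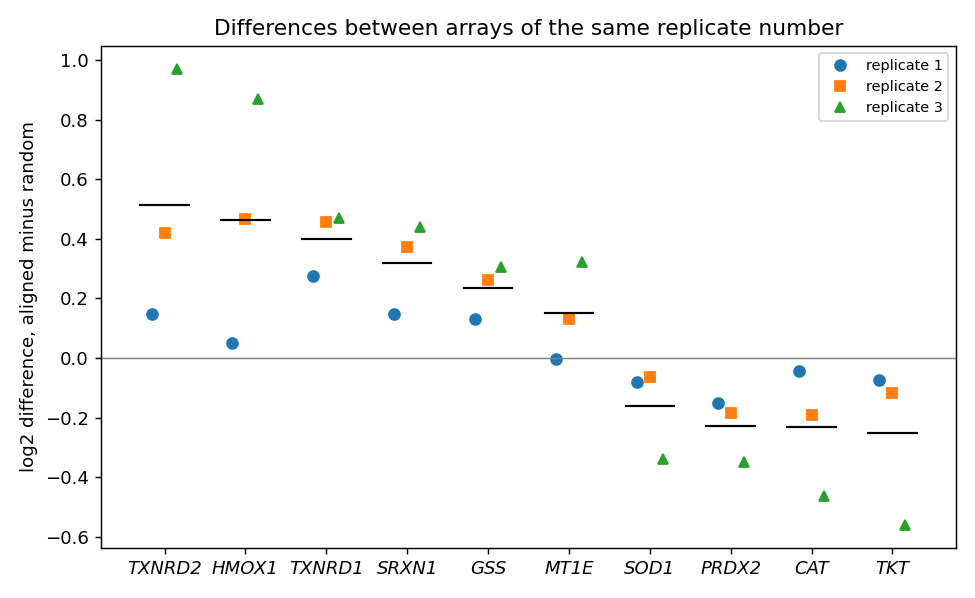
Log2 difference, aligned minus random, between the arrays with the same replicate number, for the 10 members with the largest absolute difference. Black lines mark the mean difference, and the pair numbered 3 lies farthest from 0 in all 10, at 0.97 in TXNRD2, 0.87 in HMOX1, -0.46 in CAT and -0.56 in TKT.

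Genes of glutathione went in both directions, and 0 of 9 passed the unadjusted threshold in limma, against 10.5% of all genes. The rate-limiting ligase has a catalytic subunit, GCLC, which differed by 0.08 ± 0.08, and a modifier subunit, GCLM, which differed by -0.12 ± 0.10. The 3 kept probe sets of GCLC lay between -0.04 and 0.11. GSS, which completes glutathione, read 9.77, 10.07 and 10.26 on aligned 1, 2 and 3, against 9.64, 9.81 and 9.95 on random 1, 2 and 3. The groups overlapped, but within each number the aligned array was higher, by 0.13, 0.26 and 0.31, and the difference was 0.23 ± 0.14. Its unadjusted p in limma was 0.135 (adjusted p = 0.531), against 0.0189 in the fit with the replicate block, and its value was 0.12 without aligned 3. The reductase GSR, which recycles oxidised glutathione, differed by 0.14 ± 0.11, and its other kept probe set by -0.005.

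Among the peroxidases and transferases that spend glutathione, GPX4, which protects membrane lipids from peroxidation and cells from ferroptosis, differed by -0.14 ± 0.07. Its groups did not overlap, and its differences within numbers were -0.15, -0.16 and -0.12. GSTM3 also did not overlap, at -0.09 ± 0.07, but its other kept probe set had the opposite sign at 0.10. GPX1, GSTP1 and MGST1 differed by -0.04, -0.06 and 0.10. Over the 40 members, the groups did not overlap in 2 that were higher on aligned fibers (8.71% of all genes tested) and 4 that were lower (9.33%). Together these were 15% of the members, against 18% of all genes.

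NADPH, the electron source for both reductases, comes in part from the pentose phosphate pathway. Transketolase, TKT, of the non-oxidative branch read 13.33, 13.08 and 12.74 on aligned 1, 2 and 3, against 13.40, 13.19 and 13.30 on random 1, 2 and 3. Aligned 3 was the lowest array, the difference was -0.25 ± 0.15 and it was -0.10 without aligned 3. All 3 kept probe sets of TKT were lower on aligned fibers, by -0.49 to -0.25. PGD, an NADPH-producing step, differed by -0.13 ± 0.12 and by -0.049 without aligned 3, TALDO1 by 0.08 ± 0.11 and the cytosolic isocitrate dehydrogenase IDH1 by 0.04 ± 0.09. None of the 4 passed the unadjusted threshold.

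The remaining targets overlapped between layouts. NQO1, a quinone reductase and the usual marker gene of NRF2 activity, read 12.04, 11.90 and 12.23 on aligned 1, 2 and 3, against 12.01, 11.89 and 12.08 on random 1, 2 and 3. The difference was 0.06 ± 0.10 (interval -0.18 to 0.31), its 3 probe sets gave 0.06 to 0.07, and the value turned to -0.02 without aligned 3. SQSTM1, the autophagy receptor that can bind KEAP1, differed by 0.14 ± 0.14, with 4 kept probe sets between -0.08 and 0.28, and by 0.019 without aligned 3. OSGIN1, an NRF2-induced growth inhibitor, differed by 0.04 ± 0.11, the aldo-keto reductase AKR1C3 by 0.06 ± 0.24 and the glutathione conjugate exporter ABCC1 by -0.13 ± 0.08.

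Metallothioneins are small cysteine-rich proteins that bind zinc and copper, and the metal-responsive factor MTF1 drives them through metal response elements. MT1E read 9.64, 10.10 and 10.43 on aligned 1, 2 and 3, against 9.64, 9.97 and 10.10 on random 1, 2 and 3, and the main metallothionein of many tissues, MT2A, read 12.74, 13.04 and 13.26 on aligned fibers, against 12.66, 12.99 and 13.06 on random fibers. The arrays numbered 1 were the lowest of their group on both layouts, and the groups overlapped. Differences between layouts were 0.15 ± 0.21 for MT1E, 0.08 ± 0.18 for MT1F, 0.14 ± 0.19 for MT1X and 0.11 ± 0.16 for MT2A, and each turned negative when at least 1 array was left out. The mean of the 4 genes around their own means was -0.26, 0.08 and 0.36 on aligned 1, 2 and 3, against -0.34, 0.03 and 0.13 on random 1, 2 and 3. All 4 probe sets carry the suffix for shared sequence, so the array does not separate these near-identical transcripts, and the 4 are not independent measurements.

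The share of a gene's variance over the 6 arrays that lay between replicate numbers was used to set the metallothioneins beside the other members. It was 86.7% to 94.8% for the 4 metallothioneins, while the layout held 3.01% to 8.08%. The numbers split the arrays into more groups than the layouts do, so a larger share is expected for the number in any gene. The median share of the layout was 20.1% in members and 22.2% in all genes. The number exceeded 80% in 14 of 40 members (35%), against 14.8% of all genes, and its median was 61.4% in members and 43.2% in all genes. The 14 include the 4 metallothioneins, which are not independent measurements. KEAP1 had 99.4%, AKR1C3 97.1%, GPX1 96% and NQO1 85.3%. At the low end were PRDX3 with 1.30%, CAT with 1.81% and PRDX2 with 5.27%, and TXNRD1 had 21.4%. The labels do not say what arrays of 1 number share, and the part of culture day, batch or handling in this pattern was not tested.

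**Figure D4:**
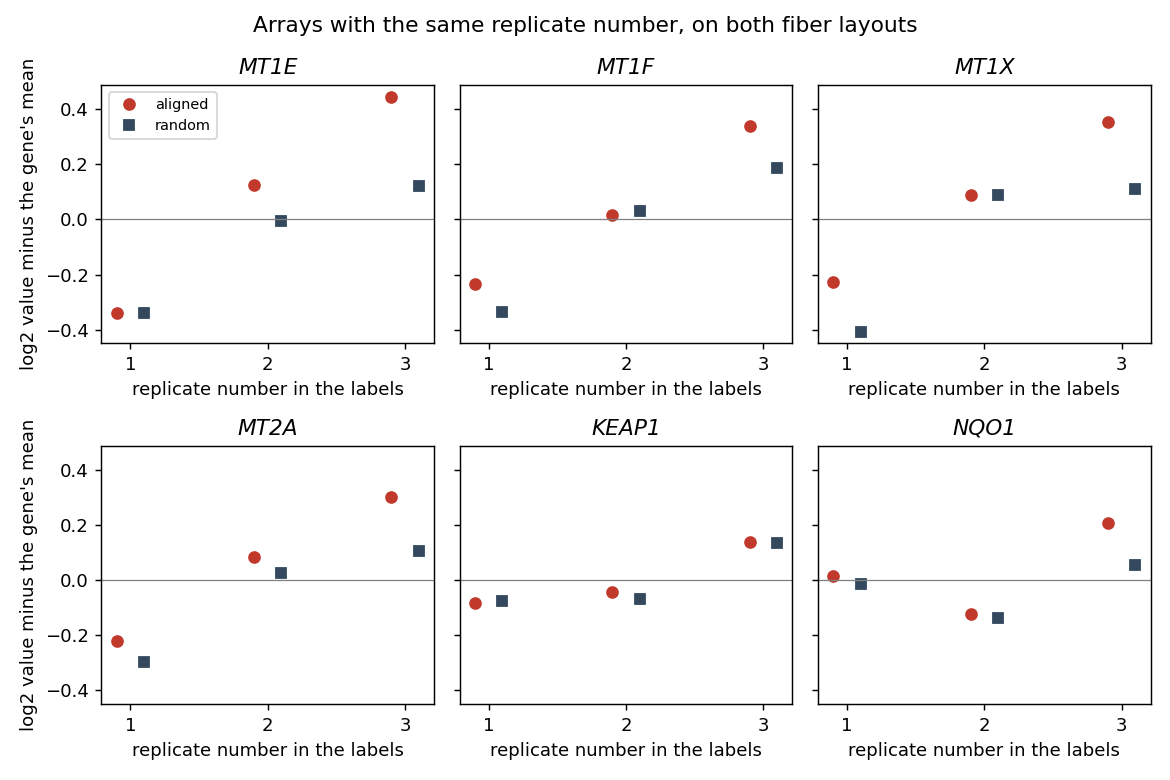
Log2 value minus the gene's mean over the 6 arrays, by the replicate number in the labels, for the 4 metallothioneins, KEAP1 and NQO1, with aligned arrays as red circles and random arrays as dark squares. The arrays numbered 1 are the lowest of their layout in all 4 metallothioneins, and the arrays numbered 3 differ between layouts by 0.32 in MT1E, 0.24 in MT1X, 0.20 in MT2A, 0.15 in MT1F and 0.15 in NQO1.

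The metallothioneins stand in a cluster on chromosome 16, and the windows printed are those of MT2A and MT1X, the metallothionein members for which a window was used. Capitals mark the core of the metal response element, TGCACNC or TGCGCNC on either strand.
MT2A, chr16:56608334-56608633, plus strand: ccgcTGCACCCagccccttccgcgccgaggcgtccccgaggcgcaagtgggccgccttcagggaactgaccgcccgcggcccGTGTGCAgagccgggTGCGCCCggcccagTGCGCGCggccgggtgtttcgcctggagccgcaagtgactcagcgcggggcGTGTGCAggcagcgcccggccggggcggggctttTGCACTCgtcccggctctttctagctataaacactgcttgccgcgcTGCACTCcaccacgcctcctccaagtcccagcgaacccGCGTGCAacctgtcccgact
MT1X, chr16:56682220-56682519, plus strand: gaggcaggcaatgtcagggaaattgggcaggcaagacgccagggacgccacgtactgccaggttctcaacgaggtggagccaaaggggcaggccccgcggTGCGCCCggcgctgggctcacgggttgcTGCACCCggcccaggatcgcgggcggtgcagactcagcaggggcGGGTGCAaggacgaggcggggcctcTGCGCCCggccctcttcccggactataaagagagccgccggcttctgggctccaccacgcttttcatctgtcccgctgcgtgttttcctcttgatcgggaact
MT2A holds 8 matches and MT1X 4. Of all 35116 windows, 29.6% hold at least 1 match, 0.601% hold 4 or more and 0.0199% hold 8 or more. Of the 51 member windows, 28 (54.9%) hold at least 1 match, so the core was not particular to the metallothioneins. Windows of KEAP1, TFRC and TXNRD1 were among them. MT2A also holds the TGACTCAGC form of the antioxidant response element at bases -104 to -96.

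A wider list held redox genes outside the members. Of 77 genes listed, 62 were measured, and 5 were higher and 6 lower on aligned fibers at an unadjusted p under 0.05, which is 17.7% against 10.5% of all genes, with 0 past the adjusted threshold in limma. The count of 11 became 18 without aligned 1 (20.1% of all genes), 6 without aligned 3 (6.58%), and 5 without random 2 (5.97%) or random 3 (5.04%). Both subunits of the cystine importer that feeds glutathione synthesis were higher. SLC7A11 read 12.004, 12.11 and 12.12 on aligned 1, 2 and 3, against 11.92, 11.67 and 11.75 on random 1, 2 and 3, and its heavy chain SLC3A2 read 9.75, 10.001 and 10.56 on aligned fibers, against 9.73, 9.32 and 9.41 on random fibers. The groups did not overlap in either gene, with differences of 0.30 ± 0.09 and 0.62 ± 0.21, and SLC3A2 was at 0.39 without aligned 3. CHAC1, which breaks glutathione down, read 7.20, 8.91 and 9.85 on aligned fibers, against 7.14, 7.39 and 7.28 on random fibers, a difference of 1.39 ± 0.58 in which aligned 1 lay within the random range. It was 0.79 without aligned 3 and 2.11 without aligned 1. The small MAF gene MAFF read 8.88, 8.40 and 9.14 on aligned fibers, against 8.55, 8.20 and 7.64 on random fibers. The groups overlapped, the difference was 0.67 ± 0.26, and it was 0.43 without random 3. Between arrays of the same number MAFF differed by 0.32, 0.19 and 1.499. The exporter ABCC4 differed between layouts by 0.18 ± 0.08.

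On the lower side, TXNIP, the inhibitor of thioredoxin and of glucose uptake, read 9.01, 9.08 and 8.19 on aligned 1, 2 and 3, against 9.40, 9.82 and 10.05 on random 1, 2 and 3, a difference of -0.999 ± 0.26 with no overlap. The sestrin gene SESN3, of a family that limits mTORC1 signalling, read 8.19, 8.02 and 7.02 on aligned fibers, against 8.93, 8.64 and 9.05 on random fibers, a difference of -1.13 ± 0.29, also with no overlap. SESN1 of the same family differed by -0.27 ± 0.10. SESN2 of that family, named after its values were seen, went the other way at 8.06, 9.25 and 10.36 on aligned fibers, against 8.11, 8.22 and 7.92 on random fibers. Its groups overlapped at aligned 1 and its difference of 1.14 ± 0.50 did not reach the unadjusted threshold, and it was 0.57 without aligned 3 and 1.72 without aligned 1. The glutathione transferases GSTM1, GSTM2 and GSTM4 differed by -0.30 ± 0.10, -0.25 ± 0.10 and -0.39 ± 0.13, each without overlap between groups, and without aligned 3 GSTM2 was at -0.16 and GSTM4 at -0.24. Their probe sets carry suffixes for shared sequence, so these related genes are not separated from one another. The member GSTM3 of the same family differed by -0.09.

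**Figure D5:**
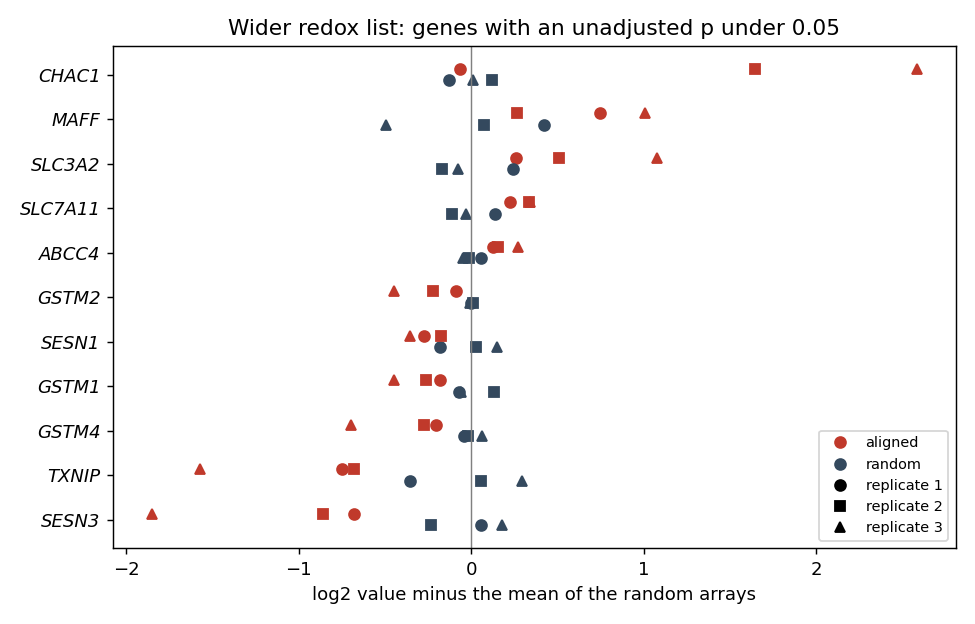
Log2 value minus the mean of the random arrays for the 11 genes of the wider redox list with an unadjusted p under 0.05, aligned arrays in red and random arrays in dark blue, with symbols for the replicate number. Aligned 3 is the array farthest from 0 in all 11 genes.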

How the data were processed

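Total RNA of U251 cells was hybridised to Affymetrix arrays, 3 per fiber layout, and the sample titles gave the group and number of each. Per the submitters' processing notes, the deposited log2 values were made by the authors with RMA, of unstated version. RMA brings arrays to a common distribution, so differences are relative to the other genes. The number of arrays limits the precision. The 62 control probe sets were set aside, and the filter on dim probe sets asked for a value above the array's median on at least 3 arrays, leaving 27621 of 54613. Probe sets with 1 annotated symbol gave 12381 genes, each read from its kept probe set of highest mean. Of the 23 members with several kept probe sets, 14 had differences of 1 sign. Signs were mixed for GCLC, GSR, GSTM3, MAFG, MT1F, NFE2L2, PRDX6, SQSTM1 and TFRC. Of the 40 measured members, 18 were read from probe sets with a suffix for shared sequence, and 29 were left when such probe sets were omitted. Those lost were TXNRD2, the metallothioneins, NQO1, MAFG, GPX1, PRDX6, TALDO1 and FTL. The model was fitted with limma 3.58.1 (lmFit, eBayes) under R 4.3.3, without covariate, two-sided, with Benjamini-Hochberg adjustment over all genes. It was tested on simulated data with independent noise and shifts larger than the difference of any member. That test therefore does not cover differences of the size seen in the members. Members, lists and the rule for named genes were chosen with earlier results of these data known. Per-array values were given for members with an unadjusted p under 0.05, the 10 with the largest absolute difference, NFE2L2, KEAP1, HMOX1 and NQO1, and after their values were seen for MT2A and genes of the wider list. Deviations from group means correlated by 0.369, 0.322 and 0.109 between arrays numbered 1, 2 and 3, above the limit of 0.1, so the numbers were treated as pairs in an alternative fit; no label states a pairing. Motifs were counted in RefSeq promoter windows of GRCh38.p14, and figures were drawn with matplotlib 3.10.9.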

Additional observations from a re-analysis of the deposited data

How the results depend on the processing

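With 15 alternatives, 541 of 587 values of single members kept their direction and their side of the adjusted threshold, 38 changed sign and 8 passed. The 8 came from array weights, where aligned 2 weighed 15.2 and aligned 3 0.245, and were TXNRD1, SRXN1, TXNRD2, HMOX1, GSS, GPX4, PRDX2 and CAT, among 2101 of 12381 genes. That setting gave 16 members (40%) and 24 genes of the wider list (38.7%) at the unadjusted threshold, against 34.9% of all genes. Omission of shared probe sets left fewer genes measured, 9568 in all. It gave 6 of the wider list (15.4%), against 10.7% of all genes. With each array left out in turn, members at the unadjusted threshold numbered 2 to 10, members without overlap 6 to 16, genes of the wider list 5 to 18, and the members' median lay between -0.032 and 0.0655. With 3 arrays against 2, the share without overlap was 40% of members and 40.2% of all genes on omitting aligned 1, 17.5% and 26.8% for aligned 2, 15% and 22.9% for aligned 3, 20% and 31.2% for random 1, 30% and 26.4% for random 2, and 27.5% and 25.9% for random 3. The replicate block left the number of members at the unadjusted threshold at 6 (15%), while the share of all genes rose to 13.6%. Of the 6, 5 were the same, with GSS in place of CAT. In the wider list the count was again 11, but MAFF was no longer among them, at an unadjusted p of 0.059 in that fit.

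Signs turned in members whose difference was at most 0.15 in size, and the cause was not tested. With the mean of all probe sets NFE2L2 was 0.011, MAFG 0.058 and GSTM3 0.0065, and without shared probe sets GSTM3 was 0.10. With array weights KEAP1 was -0.000306, NQO1 -0.031, IDH1 -0.072, FTL -0.0102 and OSGIN1 -0.092, and with repeated quantile normalization FTL was -0.0123. With each array left out, the ranges were -0.0695 to 0.0196 for NFE2L2, -0.0599 to 0.0762 for KEAP1, -0.0874 to 0.0236 for MAFG, -0.0387 to 0.15 for BACH1, -0.0236 to 0.14 for NQO1, -0.14 to 0.0793 for GPX1 and -0.0242 to 0.14 for TALDO1. They were -0.0164 to 0.0899 for IDH1, -0.0258 to 0.0225 for FTL, -0.0701 to 0.13 for OSGIN1, -0.16 to 0.27 for AKR1C3, -0.0341 to 0.36 for MT1E, -0.0689 to 0.22 for MT1F, -0.0275 to 0.29 for MT1X and -0.0116 to 0.25 for MT2A. Dim probe sets could be recognised only by rank, since detection calls were not used here.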
